A study of Homo sapiens with 18 samples.

Results

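RNA of GFP high cells of Raji, an established human B cell line from a Burkitt lymphoma, was compared at 72 h with the same fraction at 24 h. The comparison uses 6 of the 18 libraries of the series, 3 at 72 h and 3 at 24 h, and all genes in them. They were chosen by the names of their columns in the deposited count table, which give the GFP level, the time and a library set (unnumbered, 1 or 2). The other libraries, 3 in each group, are GFP high cells at 48 h and GFP low cells at 24, 48 and 72 h. Every group carries the labelled genotype Smarca4+/+, so no group is a genetic knockout. The design text describes removal of SMARCA4 (BRG1) protein through an auxin-inducible degron, a tag whose carrier is ubiquitinated and destroyed when the plant hormone auxin is present, and the title concerns SMARCA4 as a tumour suppressor of B cells. The sources used here do not give what GFP reports, whether and when auxin was added, how the fractions were sorted or the event that starts the clock. In 1 library set the column names join GFP to BRG1. Nothing in the labels says that the 3 libraries of a group were separate cultures, so the p-values cover the spread between libraries, which may be technical.

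Several pathways return below, and their workings are background. When amino acids run short or other stresses act, kinases slow translation initiation while the transcription factor ATF4 is made, and ATF4 switches on genes for amino acid synthesis, uptake and tRNA charging. When sterol falls in the endoplasmic reticulum, the factors SREBF1 and SREBF2 are released to switch on cholesterol and fatty acid synthesis. Germinal centre B cells, from which Burkitt lymphoma derives, move between a dark zone, where they divide and mutate their antibody genes, and a light zone, where CD40 and NF-kB signalling and antigen presentation mark cells selected by T cells.

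Counts per library were 33149159 to 51820226 at 72 h and 30667393 to 55419458 at 24 h. Values below are CPM (depth-scaled counts, with TMM factors), listed for the unnumbered set, set 1 and set 2 in that order. The first principal component of the 6 libraries held 54.5% of the variance and separated the times, with the 72 h libraries at 12.094 to 14.599 and the 24 h libraries at -14.646 to -12.81. The second held 21.5% and set the libraries of set 1 apart at both times. SMARCA4 mRNA had 405.6, 405.3 and 422.8 CPM at 72 h, against 414.4, 411.5 and 429 CPM at 24 h. The groups overlapped and the difference did not pass the test (log2 fold change -0.02 ± 0.03, SE; adjusted p = 0.601). The transcript (chromosome 19, 10960932 to 11079426, plus strand, hg38) cannot show the level of the protein. SMARCA2, the alternative ATPase of the same BAF chromatin remodelling complexes, had 46.3, 47.1 and 46.8 CPM at 72 h and 49.9, 50.5 and 50.3 CPM at 24 h. It fell by 0.10 ± 0.03 on the log2 scale (adjusted p = 0.015), a call that was lost with library totals as the scaling and without the filter on low counts.

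Markers fitted the labelled cell type. All 15 B cell markers and all 13 germinal centre B cell markers passed the filter on low counts, and their summed levels were 8986 to 9382 and 2608 to 2643 CPM at 72 h, and 9684 to 10091 and 2324 to 2389 CPM at 24 h. Many defining markers of other cell types were at or near 0: over the 6 libraries CD8A, FCGR1A, MPO, S100A8, CD163, NCAM1, HBA1, GATA1, KRT18 and COL3A1 had no count, CD4 had 2 and CD2 had 1. Of 11 T cell markers, 7 passed the filter and 2 rose, the kinase LCK (0.74 ± 0.08, adjusted p = 1.21e-07) and the costimulatory receptor CD28 (0.66 ± 0.18, adjusted p = 0.00707). Of those that did not pass the test, TRBC2 had 21.9 to 23.6 CPM at 72 h and 23.8 to 25.0 CPM at 24 h. CD3D had 2.29 to 2.95 and 2.71 to 3.39 CPM, and TRAC 2.11 to 2.69 and 2.47 to 2.96 CPM. The summed T cell markers were 54.5 to 57.0 CPM at 72 h and 45.7 to 49.0 CPM at 24 h. Summed myeloid markers were 0.603 to 0.886 CPM at 72 h and 0.88 to 1.14 CPM at 24 h. Of 10, 3 passed the filter (CD14, CSF1R and ITGAM) and none passed the test, though 1 was lower at an unadjusted p under 0.05. Summed NK cell markers were 0.367 to 0.603 CPM at 72 h and 1.05 to 1.57 CPM at 24 h, with 1 of 7 past the filter, NKG7, which fell by 1.41. Summed epithelial and fibroblast markers were 3.11 to 3.46 CPM at 72 h and 5.74 to 6.20 CPM at 24 h, with 2 of 9 past the filter, of which COL1A1 fell by 1.20 and DCN rose by 0.53 ± 0.20 (adjusted p = 0.049), a call lost with DESeq2 and with the set as a block, among other alternatives. Summed erythroid markers were 8.99 to 9.71 CPM at 72 h and 8.70 to 9.59 CPM at 24 h, most of it from HBG2 (8.97 ± 0.35 CPM at 72 h and 8.72 ± 0.32 CPM at 24 h, SD, n = 3 each), and none of the 3 past the filter passed the test in edgeR or DESeq2, nor at an unadjusted p under 0.05. The part of these markers in the results was not tested. In bulk libraries a change in the number of cells of a state cannot be told apart from a change in RNA per cell.

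Of 16474 genes tested, 4766 (28.9%) passed an adjusted p of 0.05 (quasi-likelihood test of edgeR, p-values adjusted by Benjamini-Hochberg), the test behind every adjusted p below. At 72 h 2298 genes (13.9%) were higher and 2468 (15%) lower than at 24 h. Scaled by library totals the split was 3016 and 1878, so that 61.6% of calls in place of 48.2% were higher. Most changes were small. The median absolute log2 fold change of called genes was 0.215, or 1.16-fold, and 186 genes (1.13%) rose and 108 (0.656%) fell by 2-fold or more. The 3 and 3 libraries did not overlap in 6607 genes (40.1%), of which 4581 were called. Protein-coding genes held 1832 rises (16.25%) and 2271 falls (20.14%) among 11277 tested, with a median log2 fold change of -0.01. These shares are the background for the counts in lists of protein-coding genes below. Long noncoding RNAs held 264 rises and 105 falls among 2588 (median 0.09), and pseudogenes 122 and 41 among 1718 (median 0.13). Over all tested genes the median was 0.009.

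**Figure D1:**
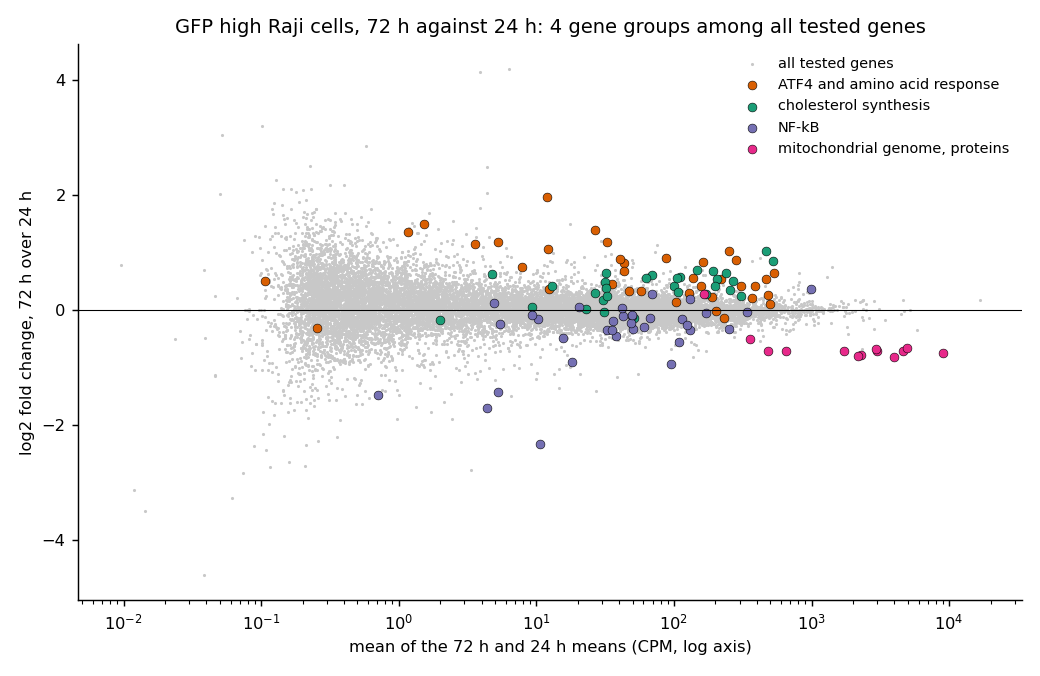
Log2 fold change of 72 h over 24 h in GFP high cells (vertical axis) against the mean of the 72 h and 24 h levels (CPM, log axis) for every tested gene in grey, with members of 4 gene lists in colour. ATF4 response and cholesterol synthesis genes lie mostly above 0, NF-kB genes mostly below, and 12 of the 13 mitochondrial genome protein genes form a tight group near -0.72 at high levels.

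Genes of the ATF4 response rose together. Of 40 listed, 37 passed the filter (STC2, NUPR1 and FGF21 did not), 32 rose, 1 fell and the median log2 fold change was 0.53. CHAC1, which breaks down glutathione and is a standard readout of ATF4 activity, had 18.51, 19.01 and 19.75 CPM at 72 h, against 4.44, 5.22 and 5.05 CPM at 24 h. Every 72 h library stood well above every 24 h library, and the fitted change was 1.96 ± 0.09 (adjusted p = 1.95e-13), or 3.88-fold. ATF4 itself had 646.4, 639.8 and 649.1 CPM at 72 h and 411.1, 411.9 and 425.5 CPM at 24 h, again without overlap (0.63 ± 0.02, adjusted p = 1.02e-14). Its partner factors rose too, ATF5 by 1.18 ± 0.06, CEBPB by 1.05 ± 0.06 and CEBPG by 0.32 ± 0.04. SESN2, a stress-induced inhibitor of the growth kinase complex mTORC1, had 37.7, 37.0 and 40.8 CPM at 72 h, against 14.3, 15.2 and 14.9 CPM at 24 h, with no overlap (1.38 ± 0.06, adjusted p = 1.19e-13). Feedback genes changed less: TRIB3, which restrains ATF4, rose by 0.67 ± 0.06, the apoptosis-linked factor DDIT3 (CHOP) by 0.37 ± 0.07 and the phosphatase subunit PPP1R15A (GADD34) by 0.32 ± 0.05. INHBE, an activin subunit induced by the same response in liver cells, was the protein-coding gene with the largest rise the naming rule admits, at 7.70, 7.12 and 7.58 CPM at 72 h and 1.22, 1.55 and 1.25 CPM at 24 h (2.48 ± 0.12, adjusted p = 1.56e-12).

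Enzymes that make serine and use its carbon rose while most of nucleotide synthesis did not. PSAT1, the aminotransferase of the serine pathway, had 340.1, 340.2 and 336 CPM at 72 h, against 171.8, 167.4 and 162.3 CPM at 24 h. The libraries of each time lay close together and did not overlap (1.02 ± 0.03, adjusted p = 2.4e-16, 2.03-fold). PHGDH, the first enzyme of the pathway, rose by 0.84 ± 0.04, and SHMT2 and MTHFD2, which pass the carbon of serine to folate in mitochondria, by 0.53 ± 0.04 and 0.53 ± 0.02. The last serine enzyme PSPH rose by 0.14 ± 0.03. In the list of 26 serine, folate and nucleotide synthesis genes, 8 rose and 12 fell (median -0.00). Those that fell include the pyrimidine enzymes CAD (-0.28 ± 0.03), DHODH (-0.27 ± 0.05) and UMPS (-0.20 ± 0.03), and TYMS (-0.23 ± 0.03), which makes thymidylate. The asparagine synthetase ASNS rose by 1.14 ± 0.12 and the transaminase GPT2 by 0.90 ± 0.04. Cystathionine enzymes, which turn homocysteine towards cysteine, rose as well, CTH by 1.17 ± 0.11 and CBS by 0.74 ± 0.08.

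Of 20 cytosolic aminoacyl-tRNA synthetases, which load tRNAs with amino acids, 12 rose and 4 fell (median 0.16). GARS1 had 980.6, 988.6 and 975.8 CPM at 72 h and 631.2, 627.9 and 626.3 CPM at 24 h (0.64 ± 0.01, adjusted p = 2.29e-18). WARS1 rose by 0.86 ± 0.02, CARS1 by 0.74 ± 0.03 and SARS1 by 0.69 ± 0.03. The list was not uniform: the histidine enzyme HARS1 fell by 0.13 ± 0.03 and the phenylalanine subunit FARSA by 0.19 ± 0.04. Among 21 amino acid and nutrient transporters 8 rose and 5 fell. SLC43A1, a carrier of large neutral amino acids, rose by 0.78 ± 0.05, the cystine carrier SLC7A11 by 0.55 ± 0.03 and the glutamine carrier SLC1A5 by 0.42 ± 0.04. The leucine carrier SLC7A5 had a log2 fold change of 0.09 ± 0.05 (adjusted p = 0.15), and the transferrin receptor TFRC, which brings in iron, fell by 0.37 ± 0.02.

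Promoters of 5 genes from 3 groups that moved are shown to give their sequence context. They were picked among called list members whose window holds a match, so the presence of a match in each was set by that choice. Each is the 250 bases before the RefSeq start on GRCh38.p14, written 5′ to 3′ on the strand of the gene, with matches to the searched motif in capitals. CHAC1 and ASNS hold 1 match each to TGATGNAA, the element that ATF4 binds with C/EBP partners, 209 and 68 bases before the start. SREBF2 holds 1 match to TCACNCCAC, a sterol element, 133 bases before its start. TNFAIP3 holds 2 matches to an NF-kB element written as GGG, any 2 bases and TTTCC, 67 and 55 bases before its start, and NFKB2 holds 1 at 78 bases. Capitals on the opposite strand read as the reverse complement, and no match overlaps another. The deposited table starts CHAC1 at 40952962 and TNFAIP3 at 137867214, so the CHAC1 window lies inside the deposited gene span and the TNFAIP3 window partly so.
CHAC1, chr15:40953221-40953470, plus strand: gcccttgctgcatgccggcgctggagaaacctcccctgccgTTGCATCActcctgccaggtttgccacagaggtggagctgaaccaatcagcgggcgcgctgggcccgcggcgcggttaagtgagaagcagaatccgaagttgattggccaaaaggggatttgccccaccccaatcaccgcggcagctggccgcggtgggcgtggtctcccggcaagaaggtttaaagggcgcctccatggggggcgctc
ASNS, chr7:97872409-97872658, minus strand: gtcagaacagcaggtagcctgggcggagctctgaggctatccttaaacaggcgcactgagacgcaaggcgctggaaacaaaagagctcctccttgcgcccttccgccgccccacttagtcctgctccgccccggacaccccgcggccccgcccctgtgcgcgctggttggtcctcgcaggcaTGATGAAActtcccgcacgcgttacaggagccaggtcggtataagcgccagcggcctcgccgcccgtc
SREBF2, chr22:41832855-41833104, plus strand: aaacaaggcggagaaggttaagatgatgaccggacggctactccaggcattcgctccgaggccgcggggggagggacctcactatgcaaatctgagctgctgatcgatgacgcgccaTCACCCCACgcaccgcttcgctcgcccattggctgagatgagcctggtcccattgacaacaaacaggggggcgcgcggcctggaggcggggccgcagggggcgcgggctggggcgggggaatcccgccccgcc
TNFAIP3, chr6:137867009-137867258, plus strand: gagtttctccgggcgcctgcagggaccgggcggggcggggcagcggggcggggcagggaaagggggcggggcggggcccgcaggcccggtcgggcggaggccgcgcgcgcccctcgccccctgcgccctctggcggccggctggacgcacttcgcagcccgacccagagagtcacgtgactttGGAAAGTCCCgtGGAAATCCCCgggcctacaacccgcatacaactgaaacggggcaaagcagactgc
NFKB2, chr10:102394328-102394577, plus strand: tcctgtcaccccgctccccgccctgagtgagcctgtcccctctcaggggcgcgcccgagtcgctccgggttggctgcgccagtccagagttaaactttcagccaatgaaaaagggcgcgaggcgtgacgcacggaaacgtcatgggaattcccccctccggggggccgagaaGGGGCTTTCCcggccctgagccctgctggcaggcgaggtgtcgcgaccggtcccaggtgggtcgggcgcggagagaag

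Of 30 tested ATF4-list genes with a promoter in the RefSeq table, 6 (20%) held TGATGNAA on either strand, namely ATF3, ASNS, CHAC1, AARS1, CEBPG and SLC1A5. All of these rose, but so did 26 of the 30 with or without a match. Over 10118 tested genes with a promoter 224 (2.214%) held it. The NF-kB element was found in 11 of 27 NF-kB list genes (40.74%) and in 267 of the 10118 (2.639%). Of those 11, NFKBIZ, NFKB1, TNFAIP3, NFKB2 and NFKBIA fell, REL and BIRC3 rose, and TNFRSF9, TNIP1, LTB and NFKBIB did not pass the test. Among the 16 of the 27 that fell, 5 (31.25%) held the element, a lower share than in the whole list. TCACNCCAC was found in 1 of 24 cholesterol synthesis genes, SREBF2, and in 114 of the 10118 (1.127%). A match describes these letters only, and a window without one says nothing of the factor.

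Sterol and fatty acid synthesis rose across the pathway. Of 33 cholesterol genes listed 30 passed the filter, 25 rose and none was called lower by edgeR or DESeq2 (median 0.42). At an unadjusted p under 0.05, and with the library set as a block, 1 was lower. HMGCS1, which makes the precursor of mevalonate, had 630.9, 619.7 and 616.3 CPM at 72 h, against 311.1, 313.8 and 299.5 CPM at 24 h. Levels were separate between the times and tight within them (1.01 ± 0.02, adjusted p = 2.88e-18, 2.02-fold). The farnesyl and squalene synthases FDPS and FDFT1 rose by 0.67 ± 0.02 and 0.63 ± 0.02, the epoxidase SQLE by 0.35 ± 0.02 and the last enzyme DHCR7 by 0.42 ± 0.03. INSIG1, which holds SREBF proteins back when sterol is plentiful and is itself their target, had 683.6, 691.1 and 662 CPM at 72 h and 376, 382.1 and 374.9 CPM at 24 h (0.85 ± 0.02, adjusted p = 4.7e-18). The regulator SREBF2 rose by 0.24 ± 0.03. MYLIP, a ubiquitin ligase of lipoprotein uptake, rose by 0.16 ± 0.04, and the sterol exporter ABCA1 by 0.41 ± 0.06. INSIG2, NR1H2, NR1H3, PMVK and SCAP did not pass the test, with log2 fold changes of -0.17 to 0.04.

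In fatty acid synthesis 14 of 18 listed genes passed the filter, 9 rose and 1 fell, or 2 with the library set as a block (median 0.43). SCD, the desaturase that makes oleate, had 1760, 1750 and 1761 CPM at 72 h, against 1048, 1038 and 1049 CPM at 24 h. The libraries of a time were nearly equal and the times did not overlap (0.75 ± 0.01, adjusted p = 5.23e-20). The citrate lyase ACLY rose by 0.48 ± 0.02, the carboxylase ACACA by 0.45 ± 0.02, the synthase FASN by 0.43 ± 0.07, the elongase ELOVL6 by 0.61 ± 0.03 and the regulator SREBF1 by 0.42 ± 0.06. LPIN1, a phosphatase in triglyceride synthesis and a nuclear coregulator, was the member that fell (-0.37 ± 0.07).

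**Figure D2:**
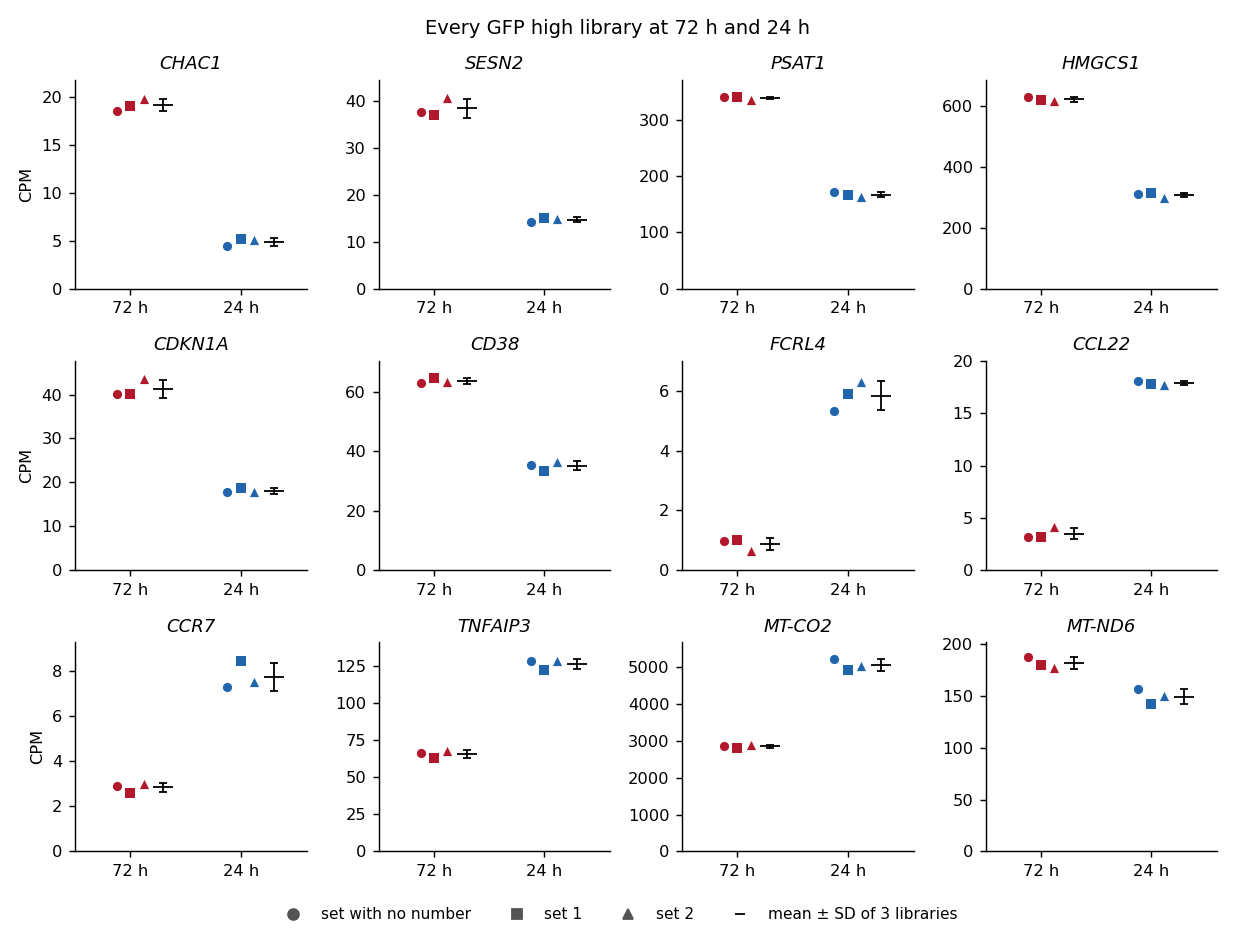
Level of 12 genes in each GFP high library (CPM, axes from 0), with the 3 libraries at 72 h left of the 3 at 24 h, symbols by library set and a bar for mean ± SD. No panel shows an overlap between the times, which the naming rule required of the genes with the largest changes, most of those shown. Over all tested genes 40.1% showed none. CHAC1, SESN2, PSAT1, HMGCS1, CDKN1A, CD38 and MT-ND6 are higher at 72 h and FCRL4, CCL22, CCR7, TNFAIP3 and MT-CO2 are lower.

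Cell cycle genes moved in both directions, while most replication histones fell. Over all tested protein-coding genes 16.25% rose and 20.14% fell. CDKN1A (p21), which blocks cyclin-dependent kinases, had 40.0, 40.2 and 43.6 CPM at 72 h, against 17.8, 18.8 and 17.7 CPM at 24 h, so that the 72 h libraries were all well above the others (1.19 ± 0.05, adjusted p = 2.63e-14, 2.29-fold). The ubiquitin ligase MDM2 rose by 0.33 ± 0.02, the cyclin CCNG1 by 0.42 ± 0.03 and the death gene BBC3 (PUMA) by 0.75 ± 0.12, while BAX, which permeabilizes mitochondria in cell death, had a log2 fold change of -0.10 ± 0.04 (adjusted p = 0.08). In the list of quiescence and FOXO target genes 6 of 22 rose and 8 fell (median 0.01), or 5 fell with library totals or without the unnumbered 24 h library. TSC22D3 rose by 0.66 ± 0.04 and YPEL5 by 0.51 ± 0.07, whereas ARRDC3 fell by 0.52 ± 0.04 and TXNIP by 0.26 ± 0.03. Of 15 genes of cyclins, CDKs and inhibitors of the G1 phase 5 rose and 3 fell, among them CCND3 (0.24 ± 0.04), CDK4 (-0.19 ± 0.03) and RB1 (-0.26 ± 0.03).

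Of 53 S phase genes 1 rose and 17 fell (median -0.04), and 3 rose with the set as a block. The share called over both directions together was near that of all tested protein-coding genes, of which 16.25% rose and 20.14% fell. Split by direction, the list held a smaller share of rises and a larger share of falls. The helicase subunit MCM5 had 363.6, 372.6 and 391.2 CPM at 72 h, against 506.4, 509.3 and 541.2 CPM at 24 h (-0.47 ± 0.04, adjusted p = 1.49e-09). MCM4 fell by 0.24 ± 0.01 and MCM3 by 0.19 ± 0.02, and GINS2, a partner of the same helicase, was the member that rose (0.24 ± 0.03). Genes of the G2 and M phases went both ways, with 9 of 53 up and 15 down, or 13 and 10 with library totals, which turns the balance: AURKA rose by 0.19 ± 0.03 and NEK2 by 0.20 ± 0.04, and CDC20 and UBE2C both fell by 0.20 ± 0.03. The proliferation marker MKI67 did not pass the test (-0.02 ± 0.02, adjusted p = 0.56). Replication histones, whose mRNAs lack a poly(A) tail and are kept by ribosomal depletion, fell in 44 of 55 tested (median -0.25). None was called higher by edgeR or DESeq2, nor at an unadjusted p under 0.05. H2BC11 had 131, 124.7 and 129 CPM at 72 h, against 161.8, 155.2 and 166.7 CPM at 24 h (-0.33 ± 0.03, adjusted p = 6.84e-08). Histone genes are near copies of each other, so the division of reads among them is uncertain.

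Light zone, NF-kB and antigen presentation genes fell. CCL22, a chemokine that draws T cells and a target of NF-kB, had 3.15, 3.20 and 4.10 CPM at 72 h, against 18.1, 17.8 and 17.7 CPM at 24 h. All 24 h libraries were far above the 72 h ones (-2.33 ± 0.07, adjusted p = 7.06e-16), and the 72 h mean was 0.199 of the 24 h mean. TNFAIP3 (A20), an inhibitor that NF-kB induces against itself, had 66.5, 62.7 and 67.7 CPM at 72 h and 127.8, 122.1 and 128 CPM at 24 h (-0.94 ± 0.04, adjusted p = 1.04e-13). Of 35 NF-kB genes 34 passed the filter, 3 rose and 21 fell (median -0.24). The subunits NFKB1, NFKB2 and RELA fell by 0.16 ± 0.03, 0.36 ± 0.03 and 0.30 ± 0.05, REL rose by 0.18 ± 0.03 and RELB did not pass the test (0.02 ± 0.07). The inhibitor NFKBIA fell by 0.26 ± 0.03 and the signalling adaptor TRAF1 by 0.56 ± 0.04. BIRC3, another target that blocks cell death, went the other way and rose by 0.35 ± 0.03. The chemokines CCL3 and CCL4 fell by 0.46 ± 0.05 and 0.49 ± 0.07, and CCL4L2, a near copy of CCL4 with which reads may be exchanged, rose by 0.27 ± 0.04. CCL5, which attracts T cells, fell by 1.71 ± 0.13.

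Among 23 light zone genes tested 2 rose and 14 fell (median -0.25). CCR7, the receptor that guides cells to T cell zones, had 2.90, 2.60 and 3.01 CPM at 72 h, against 7.282, 8.444 and 7.496 CPM at 24 h, with no overlap (-1.44 ± 0.12, adjusted p = 6.12e-09). GPR183 (EBI2), which guides cells to the follicle edge, fell by 1.11 ± 0.08. The costimulatory ligand CD86 fell by 0.62 ± 0.04, the cytokine subunit EBI3 by 0.90 ± 0.06, the low affinity IgE receptor FCER2 by 0.50 ± 0.05 and the activation marker CD83 by 0.33 ± 0.02. EGR1, also an immediate early gene, rose by 0.80 ± 0.06, and MYC did not pass the test (424.1 ± 17.99 CPM at 72 h and 422.5 ± 16.3 CPM at 24 h, SD, n = 3 each; adjusted p = 0.95). Of 21 MHC class II genes 15 fell (median -0.21), and none was higher by edgeR, by DESeq2 or at an unadjusted p under 0.05, though 1 was with the set as a block. The class II transactivator CIITA had 182.7, 185.6 and 192.4 CPM at 72 h and 217.6, 222.4 and 236.9 CPM at 24 h (-0.27 ± 0.03, adjusted p = 1.55e-06). The invariant chain CD74 fell by 0.30 ± 0.03, HLA-DQB1 by 0.60 ± 0.05 and HLA-DRA by 0.13 ± 0.02. In the class I list 12 of 19 fell (median -0.19), including B2M (-0.35 ± 0.02) and the immunoproteasome subunit PSMB9 (-0.35 ± 0.06). Counts of HLA genes can be divided uncertainly among similar genes and alleles.

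Receptors of the Fc receptor-like family fell. FCRL4, a marker of tissue memory B cells that dampens B cell receptor signals, had 0.98, 1.00 and 0.64 CPM at 72 h, against 5.32, 5.89 and 6.28 CPM at 24 h. No library of one time came near those of the other (-2.79 ± 0.19, adjusted p = 2.02e-10), and the 72 h mean was 0.145 of that at 24 h. FCRL3 had 23.7, 22.9 and 24.0 CPM at 72 h and 54.3, 52.5 and 52.8 CPM at 24 h (-1.18 ± 0.03, adjusted p = 8.12e-17), FCRL2 fell by 1.68 ± 0.22, FCRL5 fell by 1.398 ± 0.24 and FCRL1 by 0.99 ± 0.19. Of 22 coreceptors and inhibitory receptors 2 rose and 15 fell (median -0.31), and 4 rose with the set as a block or with library totals. The checkpoint ligand CD274 (PD-L1) fell by 0.94 ± 0.19 and SLAMF7 by 0.72 ± 0.07. CD22, an inhibitory coreceptor that binds sialic acid, rose by 0.35 ± 0.02. Many interferon-stimulated genes were below the filter: of 43 listed 27 passed the filter, 2 rose and 12 fell (median -0.20), with 8 lower by DESeq2 and 1 higher without the 24 h library of set 1. PARP9, an antiviral ADP-ribosyltransferase partner, fell by 0.52 ± 0.05 and the sensor IFIH1 by 0.28 ± 0.04.

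Markers that define the germinal centre B cell rose instead. Of 13, 9 rose and 1 fell (median 0.31). CD38, an ectoenzyme high on germinal centre and plasma cells, had 62.8, 64.8 and 63.3 CPM at 72 h, against 35.5, 33.4 and 36.3 CPM at 24 h (0.86 ± 0.04, adjusted p = 1.09e-13). MME (CD10) had 189, 187.4 and 179.9 CPM at 72 h and 111.4, 115.2 and 109.1 CPM at 24 h (0.73 ± 0.03, adjusted p = 4.43e-14). The times were separate for both genes. The confining receptor S1PR2 rose by 0.34 ± 0.04 and the repressor BCL6 by 0.19 ± 0.02. SERPINA9 was the marker that fell (-0.34 ± 0.03). In the dark zone list 10 of 20 rose and 2 fell (median 0.07), including MME, which both lists hold. CD27 rose by 0.29 ± 0.04, FOXO1, a factor of dark zone cells, did not pass the test (0.04 ± 0.04) and the polymerase POLH fell by 0.28 ± 0.03.

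Plasma cell genes were divided. Of 21 tested 11 rose and 7 fell (median 0.14). JCHAIN, which joins IgM and IgA units, had 927.8, 914.7 and 849.6 CPM at 72 h and 723, 703.3 and 671.2 CPM at 24 h (0.36 ± 0.03, adjusted p = 6.35e-08), and the secretory factor XBP1 rose by 0.33 ± 0.02. The factors that drive plasma cell fate fell, PRDM1 (Blimp-1) by 0.36 ± 0.04 and IRF4 by 0.90 ± 0.15. B cell transcription factors also went both ways, with 9 rises and 12 falls in 34. ID3, which holds back E proteins, rose by 0.67 ± 0.08, IRF8 by 0.15 ± 0.02, and IKZF2 (-0.40 ± 0.04), RUNX3 (-0.39 ± 0.04) and ID2 (-0.32 ± 0.03) fell. PAX5, which keeps B cell identity, fell by 0.14 ± 0.03. In B cell receptor signalling 10 of 39 rose and 11 fell: the calcium channel gene ITPR2 by 0.37 ± 0.02 and the phospholipase PLCG2 by 0.17 ± 0.02 upward, the phosphatase INPP5D (SHIP1) by 0.35 ± 0.03 and the kinase SYK by 0.19 ± 0.02 downward. VPREB1, part of the surrogate light chain of precursor B cells, was among the largest rises, at 3.88, 3.89 and 3.40 CPM at 72 h and 1.29, 1.32 and 1.22 CPM at 24 h (1.55 ± 0.11, adjusted p = 7.62e-10).

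Immediate early genes, which respond to growth signals and stress within minutes, rose in 8 of 21 tested and fell in 4 (median 0.22). FOS had 5.71, 5.79 and 6.66 CPM at 72 h, against 1.66, 1.91 and 1.78 CPM at 24 h (1.77 ± 0.14, adjusted p = 3.84e-09). JUN rose by 0.71 ± 0.08 and the phosphatase DUSP1 by 0.91 ± 0.09. Those that fell include ZFP36L1, which marks mRNAs for decay (-0.52 ± 0.04), and IER5 (-0.39 ± 0.04).

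**Figure D3:**
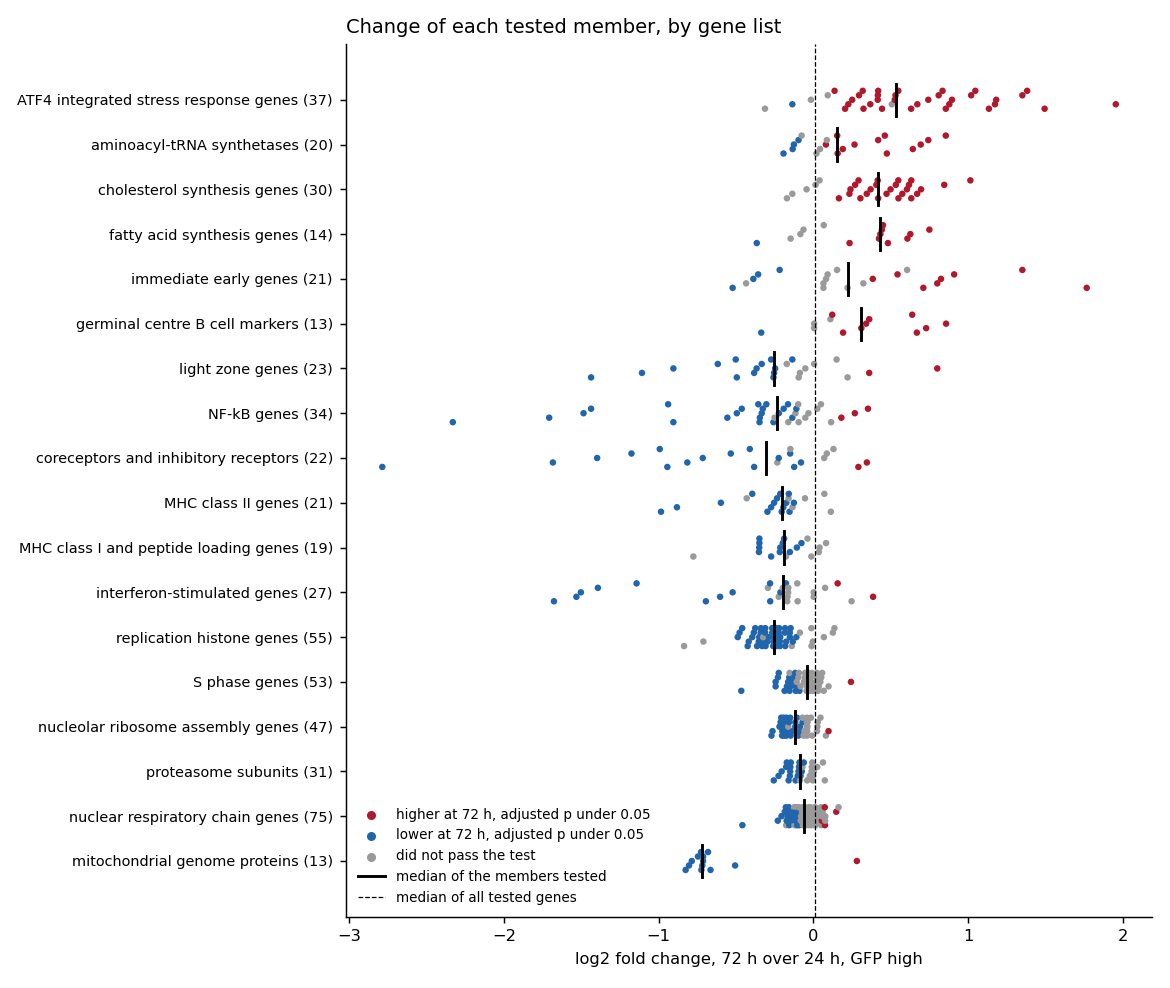
Log2 fold change of 72 h over 24 h (horizontal axis) of each tested member of 18 gene lists, 1 row a list with the number tested in brackets, red where higher and blue where lower at an adjusted p under 0.05 and grey otherwise, with the list's median as a bar. Medians run from 0.53 in the ATF4 list to -0.72 in the mitochondrial genome proteins, beside a dashed line for all tested genes at 0.009.

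Messages of the mitochondrial genome fell together, with nuclear genes of the same complexes close to level. The mitochondrial genome took 2.666% to 2.794% of counts at 72 h and 4.269% to 4.616% at 24 h. Of its 13 protein genes, all subunits of the respiratory chain or ATP synthase, the 12 on the plus strand fell, by 0.51 to 0.83 on the log2 scale. MT-CO2, a subunit of cytochrome oxidase, had 2878, 2809 and 2880 CPM at 72 h, against 5239, 4921 and 5032 CPM at 24 h (-0.83 ± 0.02, adjusted p = 2.85e-18), and every 24 h library was far above the 72 h ones. MT-CO1 had 7006, 6769 and 6617 CPM at 72 h and 11860, 11120 and 11210 CPM at 24 h (-0.75 ± 0.03, adjusted p = 3.16e-15). MT-ND6, the only protein gene of the minus strand, had 188, 179.9 and 177.3 CPM at 72 h and 156.4, 142.3 and 149.7 CPM at 24 h, and rose (0.28 ± 0.05, adjusted p = 0.000222). Both strands are transcribed across the circle and the sources used here do not give the strand setting of the counts, so reads of MT-ND6 and of plus strand transcripts opposite it cannot be told apart. Mitochondrial tRNA genes, whose short transcripts are poorly caught by such libraries, fell in 7 of 20 tested by edgeR and 6 by DESeq2, and none was higher by either or at an unadjusted p under 0.05. MT-TT fell most, with 15.4, 15.4 and 13.8 CPM at 72 h and 41.3, 37.9 and 38.8 CPM at 24 h (-1.41 ± 0.06, adjusted p = 1.1e-13). The mitochondrial ribosomal RNAs rose, MT-RNR2 with 14.11, 11.04 and 11 CPM at 72 h and 0.75, 0.44 and 0.77 CPM at 24 h (4.18 ± 0.23, adjusted p = 6.58e-12). The library kit removes ribosomal RNA, so these are the reads that depletion left.

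Of 75 nuclear genes for the respiratory chain 4 rose and 24 fell (median -0.06). With the set as a block 37 fell, with library totals 7 rose and 15 fell, and without the 72 h library of set 2 only 2 rose. NDUFA8 of complex I fell by 0.23 ± 0.03 and UQCRB of complex III by 0.16 ± 0.03, while UQCRC2, also of complex III, rose by 0.15 ± 0.02. Factors that copy and transcribe the mitochondrial genome were among those that fell: the RNA polymerase POLRMT had 54.4, 56.2 and 61.2 CPM at 72 h, against 66.2, 70.6 and 77.6 CPM at 24 h (-0.32 ± 0.07, adjusted p = 0.000713), the DNA polymerase POLG fell by 0.22 ± 0.03 and the helicase TWNK by 0.30 ± 0.04. Over all 31 factors of mitochondrial gene expression 3 rose, 9 fell and 19 did not pass the test. Their median was -0.06, with log2 fold changes from -0.32 to 0.26. With the set as a block 14 fell. Without the 24 h library of set 1, or the 72 h library of set 1 or 2, at most 1 rose. Of all tested protein-coding genes 16.25% rose and 20.14% fell. The share called over both directions together was near that in this list and in the nuclear respiratory chain list. Split by direction, both lists held a smaller share of rises and a larger share of falls in the main fit.

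More nucleolar assembly genes and proteasome subunits fell than rose, and cytosolic ribosomal proteins went both ways. The share of cytosolic ribosomal proteins called was near that of all protein-coding genes, of which 16.25% rose and 20.14% fell. Of 47 nucleolar assembly genes 1 rose and 28 fell (median -0.12); with the set as a block 3 rose, with library totals 4 and without the 24 h library of set 2 2. Nucleolin (NCL) fell by 0.17 ± 0.02, the GTPase GNL2 by 0.27 ± 0.03 and the polymerase subunit POLR1A by 0.17 ± 0.03. NPM1, which chaperones ribosomal proteins, rose by 0.10 ± 0.02. Cytosolic ribosomal proteins had a median of -0.00, and 14 of 78 rose and 11 fell; these counts were 26 and 27 with the set as a block and 20 and 6 with library totals, 9 rose without the 24 h library of set 1 or the 72 h library of set 2 or the unnumbered set, and 7 fell without the 24 h library of set 2. Of 31 proteasome subunits 18 fell and none was called higher by edgeR or DESeq2 (median -0.09), although 1 was higher at an unadjusted p under 0.05, with library totals, with the length trend removed and without the 24 h library of set 2, and 2 with the set as a block. PSMB4 fell by 0.20 ± 0.02 and PSMC4 by 0.26 ± 0.03.

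Among iron storage and antioxidant genes more fell than rose. The ferritin chain FTH1 had 1781, 1769 and 1800 CPM at 72 h, against 2861, 2837 and 2874 CPM at 24 h (-0.68 ± 0.01, adjusted p = 1.5e-19). NQO1, a quinone reductase and NRF2 target, had 132.7, 125.5 and 131 CPM at 72 h and 212.7, 208.7 and 215.9 CPM at 24 h (-0.71 ± 0.03, adjusted p = 1.04e-14). Neither gene showed an overlap. The ferritin light chain FTL fell by 0.43 ± 0.03 and thioredoxin (TXN) by 0.36 ± 0.03. Of 22 NRF2 and antioxidant genes tested 12 fell (median -0.10), and 4 rose; 2 rose without the 24 h library of set 1, the 24 h library of the unnumbered set or the 72 h library of the unnumbered set, and 1 without the 72 h library of set 2. SLC7A11, which NRF2 and ATF4 both control, was the member with the largest rise. In the lysosome and autophagy list 6 of 34 rose and 12 fell: the protease CTSH by 0.61 ± 0.03 and the cargo receptor SQSTM1 by 0.39 ± 0.04 downward, and WIPI1, which marks forming autophagosomes, by 0.58 ± 0.06 upward.

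Of 28 BAF subunits 2 rose and 6 fell (median -0.05), a share near the 28.9% called among all genes; with the set as a block 5 rose and 10 fell, and with library totals 4 rose and 3 fell. BCL7A rose by 0.26 ± 0.03 and ARID2, a subunit of the PBAF form, by 0.21 ± 0.03. The shared actin subunit ACTB, which is mostly cytoskeletal, fell by 0.35 ± 0.03 and SMARCD1 by 0.22 ± 0.03. Of 30 Polycomb and histone methylation genes 9 rose and 6 fell. The methyltransferase KMT2A rose by 0.17 ± 0.02, and the acetyltransferases EP300 and CREBBP fell by 0.14 ± 0.02 and 0.13 ± 0.03.

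Beyond the groups above, the largest changes that the naming rule admits hold LPP, an adhesion protein gene (105.7, 105.1 and 100.9 CPM at 72 h and 48.7, 46.7 and 48.1 CPM at 24 h; 1.12 ± 0.03, adjusted p = 8.12e-17) and CHI3L2, a chitinase-like protein (0.90 ± 0.02). TFEC, a factor of the MITF family, had 35.4, 34.2 and 33.4 CPM at 72 h and 79.0, 74.2 and 71.6 CPM at 24 h (-1.13 ± 0.04, adjusted p = 1.22e-14). IL1R2, a decoy receptor for interleukin-1, fell by 1.499 ± 0.09, the repressor BHLHE40, of the glycolysis and hypoxia list, by 1.89 ± 0.12, the cytoskeletal VIM by 1.37 ± 0.20 and PDLIM1 by 1.46 ± 0.14. OLMALINC, a long noncoding RNA beside SCD that is known to respond to sterol, had 25.5, 25.9 and 26.6 CPM at 72 h and 8.84, 9.59 and 9.29 CPM at 24 h (1.49 ± 0.05, adjusted p = 3.99e-15). XACT, a long noncoding RNA, rose by 1.01 ± 0.04, or 0.58 with the trend on exon length removed.

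The 48 h mean lay between the 24 h and 72 h means in 22 of the 24 genes with the largest changes and in all 12 abundant ones. These genes were chosen for a wide gap between 24 and 72 h, which makes a 48 h mean inside that gap likely. The same count over all genes was not made. CHAC1 averaged 4.90 ± 0.41 CPM at 24 h, 7.98 ± 0.45 at 48 h and 19.1 ± 0.62 at 72 h (SD, n = 3 each), so that most of its rise came after 48 h. PSAT1 averaged 167.2, 186.9 and 338.8 CPM and INSIG1 377.7, 395.5 and 678.9 CPM at 24, 48 and 72 h, with the same late rise. CD38 rose more evenly, at 35.0, 49.9 and 63.6 CPM, and TNFAIP3 fell in both intervals, at 126, 86.4 and 65.6 CPM. MDM2 stood highest at 48 h, with 250.8, 329.5 and 315.9 CPM, and EGR1 lowest, with 12.9, 11.2 and 22.5 CPM. H2BC11 was also lowest at 48 h, with 161.2, 81.8 and 128.2 CPM. The exceptions among the largest changes were MT-RNR2, at 0.65, 0.19 and 12.1 CPM, and MT-RNR1, at 0.43, 0.073 and 7.36 CPM. These levels describe the course and share the libraries compared above, so no test is given.

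**Figure D4:**
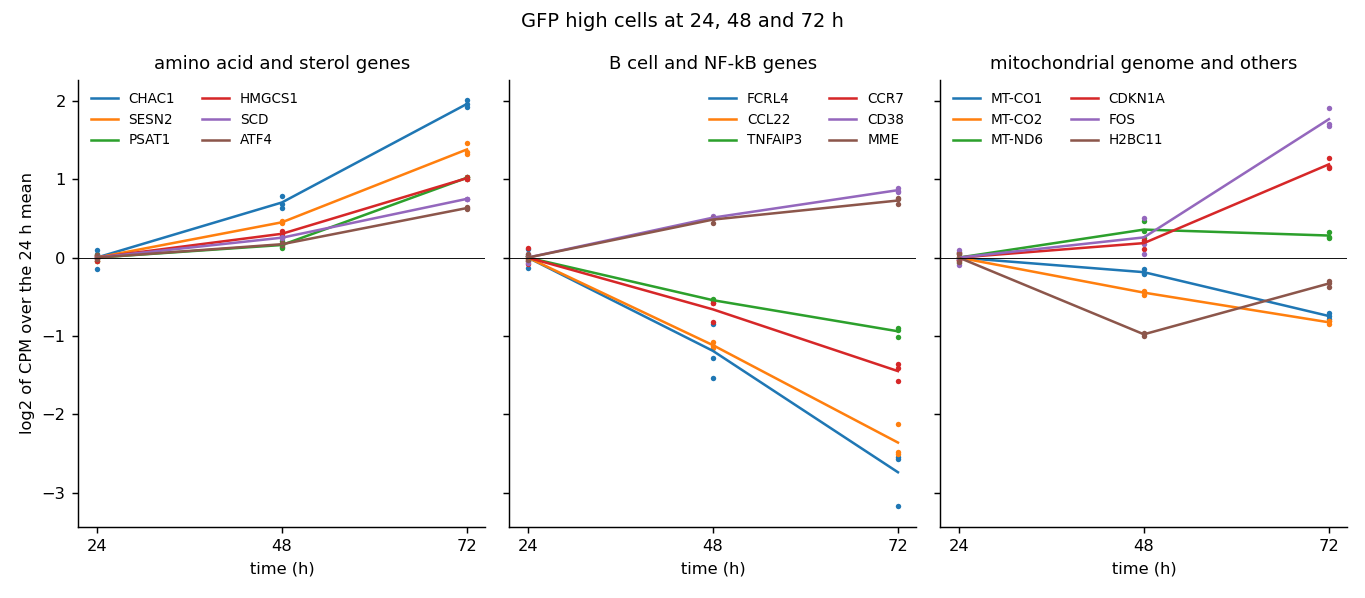
Log2 of CPM over the 24 h mean (vertical axis) at 24, 48 and 72 h in GFP high cells for 18 genes in 3 panels, with lines through the means of 3 libraries and points for single libraries. CHAC1 and PSAT1 rise mainly after 48 h, CD38 and TNFAIP3 change more evenly, and H2BC11 is lowest at 48 h.

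The same interval in GFP low cells, in separate libraries, shows which changes differed between the fractions. In GFP low cells 9403 genes (57.1%) passed the test, 4876 (29.6%) upward and 4527 (27.5%) downward, and the change differed between GFP high and GFP low in 6894 (41.8%), 3233 (19.6%) with a positive and 3661 (22.2%) with a negative difference. With library totals the median difference over all genes moved by 0.139 and the split was 5224 and 2320. Differences also followed exon length across 10079 genes (Spearman rho 0.498, across genes, which are not independent), whereas the change in GFP high cells itself hardly did (rho 0.061), nor was it tied to level (rho -0.085). ATF4 and cholesterol genes rose in GFP low cells too, 31 of 37 and 25 of 30, with medians of 0.53 and 0.42 in GFP high cells and 0.72 and 0.41 in GFP low cells. In the ATF4 list the difference was positive in 4 and negative in 17 of 37, or 8 and 7 with library totals, and in the cholesterol list positive in 4 and negative in 11 of 30, or 12 and 6 with library totals, so the direction of these differences depends on the scaling. HMGCS1 rose by 1.01 in GFP high cells and 1.05 in GFP low cells, a difference of -0.03 ± 0.03 that did not pass the test (adjusted p = 0.5), and PSAT1 by 1.02 and 1.66 (difference -0.64, adjusted p = 8.4e-11). INSIG1 differed by -0.34 (adjusted p = 3.4e-09), and SLC7A11 rose by 0.55 in GFP high cells, against 0.01 in GFP low cells (difference 0.54, adjusted p = 4.7e-10).

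NF-kB and light zone genes fell by less in GFP high cells. The difference was positive in 26 of 34 NF-kB genes and negative in 4, with medians of -0.24 in GFP high cells and -0.52 in GFP low cells, and positive in 18 of 23 light zone genes and negative in 1, with medians of -0.25 and -0.69. CCR7 fell by 1.44 in GFP high cells and by 3.15 in GFP low cells (difference 1.71 ± 0.17, adjusted p = 2.07e-08), and TNFAIP3 by 0.94 and 1.53 (difference 0.59, adjusted p = 2.1e-08). The 72 h levels of TNFAIP3 were close, 65.6 CPM in GFP high and 63.7 CPM in GFP low cells, and the 24 h levels were 126 and 184.3 CPM. CCL22 likewise had 3.48 and 3.71 CPM at 72 h and 17.9 and 33.6 CPM at 24 h in GFP high and GFP low cells.

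For other groups the level rose in GFP low cells. The 12 mitochondrial messages of the plus strand fell in GFP high cells, and the 13 protein genes had medians of -0.72 (GFP high) and 0.33 (GFP low), with a negative difference in 12 of 13. MT-CO2 fell by 0.83 in GFP high and rose by 0.54 in GFP low cells (difference -1.37 ± 0.03, adjusted p = 2.71e-19). MT-ND6 was the exception, with 0.28 and 0.20 (difference 0.08, adjusted p = 0.38). Replication histones had medians of -0.25 and 1.24 and a negative difference in 48 of 55, and H2BC11 fell by 0.33 in GFP high and rose by 1.61 in GFP low cells (difference -1.94 ± 0.05, adjusted p = 4.75e-18). All 78 cytosolic ribosomal protein genes had a negative difference, with medians of -0.00 and 0.73, and RPL13A rose by 0.17 in GFP high cells and 0.77 in GFP low cells (difference -0.61, adjusted p = 4.8e-15). SMARCA4 mRNA fell by 0.32 in GFP low cells, against -0.02 in GFP high cells (difference 0.29, adjusted p = 6.7e-06), and BAF subunits had 11 positive and 4 negative differences in 28, or 6 and 7 with the length trend removed.

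**Figure D5:**
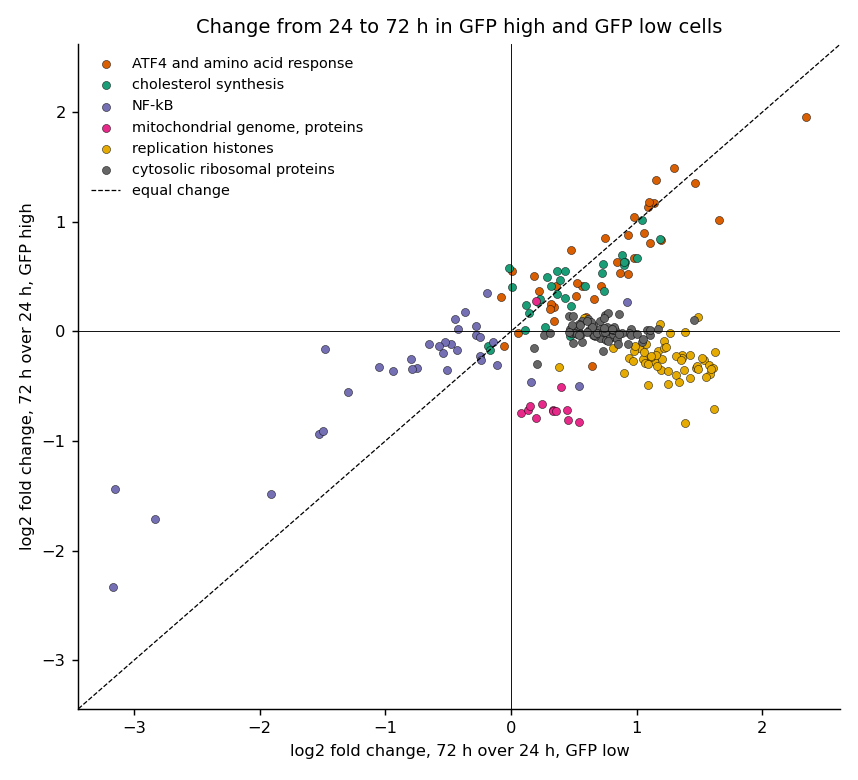
Log2 fold change of 72 h over 24 h in GFP high cells (vertical axis) against that in GFP low cells (horizontal axis) for members of 6 gene lists, with the line of equal change dashed. Most ATF4 and cholesterol genes lie in the upper right near the line, and most NF-kB genes in the lower left above it. Mitochondrial genome proteins other than MT-ND6, most replication histones and the ribosomal proteins lie to the right of 0 and below the line. MT-ND6 lies just above the line.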

How the data were processed

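RNA was total RNA from Raji cells, made into libraries with a kit that removes ribosomal RNA, per the labels' protocols. The deposited values are raw counts per gene, unnormalized; the submitters' processing notes name FastQC, STAR, featureCounts, Subread, R 4.2.1 and hg38, without roles. The sources used here do not give the annotation release, strand setting or treatment of reads with several positions. Column names give the group and library set but not which of a group's samples a column is. Of 60707 genes read, 16474 passed edgeR's filterByExpr; 1 gene entry broken over 3 lines was left out.

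All 18 libraries were fitted as 6 group means with edgeR 4.0.16 (limma 3.58.1, R 4.3.3), TMM scaling and the quasi-likelihood F test, with Benjamini-Hochberg adjustment over all tested genes. Errors of log2 fold changes are SE; the fold change is 72 h over 24 h, and the difference is the change in GFP high minus that in GFP low. On simulated counts for this comparison, tested on 16095 genes, 56.1% of genes changed by 0.25 on the log2 scale, 79.1% of those changed by 0.5 and 95.5% of those changed by 1 were recovered, with 12 false calls. Only 66, 67 and 67 genes were changed by these amounts, in the 72 h GFP high group. The simulated libraries shared no deviation by library set, unlike the real ones, so these rates need not hold for the real data. Libraries of a group differed by more than sampling noise and all were kept. Same-numbered libraries deviated together: departures from their group means correlated at 0.2899 to 0.5454 in the 3 pairs of 72 h and 24 h libraries. Between sets the values were -0.4058 to 0.0015, but subtracting a mean of only 3 libraries itself pushes these below 0. Libraries can thus be paired by set, though the main fit did not pair them. Whether the shared deviation is technical was not tested. Alternatives were the set as a block, the 6 libraries alone in the fit, DESeq2 1.42.0, other scalings and filters, removal of a trend on exon length and leaving out each library.

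Genes named are, among called genes averaging 1 CPM or more without overlap between the times, the 12 with the largest change in each direction and the 6 among those at 50 CPM or more, the 6 with the largest difference between fractions in each direction, and for each list up to 4 in each direction by adjusted p, the member with the largest change and members whose role needed a value; SMARCA4 and SMARCA2 are always given. Genes and the 52 lists were chosen with earlier results of these data known. Promoters are from the RefSeq table for GRCh38.p14. Some list members are not reported here.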

Additional observations from a re-analysis of the deposited data

Results flagged for a closer look

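In 31 genes among those named, the change in GFP high cells differed from that in GFP low cells by 1 or more on the log2 scale and passed the test of the difference in edgeR, 14 with a positive and 17 with a negative difference. Values below are the difference with, in brackets, the GFP high change and then the GFP low change.

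Positive differences were found in the mitochondrial ribosomal RNAs MT-RNR2 with 4.51 (4.18 and -0.32) and MT-RNR1 with 3.87 (4.14 and 0.27). The immune genes that fell by less in GFP high cells were CCR7 with 1.71 (-1.44 and -3.15), FCRL4 with 1.26 (-2.79 and -4.05), SLAMF7 with 1.25 (-0.72 and -1.97), CCL5 with 1.12 (-1.71 and -2.83), FCRL3 with 1.12 (-1.18 and -2.30) and SAMD9L with 1.03 (-0.70 and -1.72). At 24 h CCR7 had 7.74 CPM in GFP high and 32.72 CPM in GFP low cells, FCRL4 5.83 and 11.15 CPM, and CCL5 6.69 and 8.27 CPM. At 72 h the levels were low in both, 2.8 and 3.6 CPM, 0.87 and 0.67 CPM, and 2.07 and 1.14 CPM. CLIC2 had 2.06 (-1.63 and -3.69), ATRN 2.02 (1.68 and -0.34), ALPK2 1.92 (-0.60 and -2.52), COL1A1 1.05 (-1.20 and -2.25) and XACT 1.02 (1.01 and -0.01). CLIC2 was near the floor at 72 h, with 0.26 CPM in GFP high and 0.20 CPM in GFP low cells. XACT's difference was 0.20 with the trend on exon length removed. The noncoding RNA MIR663AHG had 3.81 (0.39 and -3.42), and 0.81 without a call when the unnumbered GFP low library at 24 h was left out.

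Negative differences were found in mitochondrial messages, MT-CO2 with -1.37 (-0.83 and 0.54), MT-ATP6 with -1.26 (-0.80 and 0.46) and MT-CO3 with -1.06 (-0.72 and 0.33), and in replication histones, H2BC11 with -1.94 (-0.33 and 1.61), H3C12 with -1.85 (-0.42 and 1.42), H4C9 with -1.58 (-0.49 and 1.09), H2BC4 with -1.55 (-0.35 and 1.20) and H2BC12 with -1.28 (-0.38 and 0.90). Short noncoding RNAs had RNU6ATAC -2.64 (-0.03 and 2.62), RN7SKP203 -2.18 (-0.27 and 1.91), RN7SL1 -2.12 (-0.43 and 1.69) and RN7SKP71 -2.07 (-0.35 and 1.72). The others were HBD with -2.75 (-1.61 and 1.14), MLC1 with -2.06 (0.83 and 2.89), JCHAIN with -1.37 (0.36 and 1.73), NEAT1 with -1.25 (-0.23 and 1.02) and RPS21 with -1.05 (-0.12 and 0.93). Reads of histones, HBD and the short RNAs may be shared with near copies.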

How the results depend on the processing

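Of 332 named genes, 301 kept their direction and their side of the threshold under every alternative run, 31 did not, and 1 turned, LRPPRC at -0.0003 with the trend on exon length removed; the cause was not tested. Counts of genes past the threshold at 72 h against 24 h were 1966 higher and 2282 lower with the 6 libraries alone, 1815 and 2414 with DESeq2, 2157 and 2629 with DESeq2 size factors in edgeR, 2333 and 2367 with the length trend removed, 2006 and 2384 without a filter and 2428 and 2313 with a stricter one. Changes of 2-fold or more numbered 140 with DESeq2 (83 higher, 57 lower) and 121 with the stricter filter (72 and 49), against 294. Differences between fractions were 5224 positive and 2320 negative with library totals.

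Leaving out each library gave 3793 to 4355 calls (1827 to 2028 higher, 1958 to 2393 lower), 275 to 303 of 2-fold or more (167 to 191 higher, 106 to 112 lower) and 6463 to 6604 differences (2746 to 3111 positive, 3421 to 3771 negative). With the library set as a block, which pairs the libraries, 6538 genes were called (3145 higher, 3393 lower) in place of 4766, 373 by 2-fold or more (241 and 132), and 8349 differences (3871 positive, 4478 negative). The 3 libraries a group limit what small changes could be called.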

Other observations

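Stress pathways beside the ATF4 response showed smaller median changes. The counts below stand beside 16.25% higher and 20.14% lower among all tested protein-coding genes. Of 33 unfolded protein response genes 10 rose and 4 fell, with a median of 0.04; 16 rose and 9 fell with the library set as a block and 18 rose with library totals. The sensors ERN1 (IRE1) and EIF2AK3 (PERK) rose by 0.44 ± 0.06 and 0.26 ± 0.03, HERPUD1, which helps clear misfolded proteins, by 0.39 ± 0.02, and the chaperone HSP90B1 fell by 0.22 ± 0.02. Among 29 heat shock and chaperone genes 2 rose and 11 fell, with a median of -0.07; 8 rose and 16 fell with the set as a block, 7 rose and 8 fell with library totals, and 1 rose without the unnumbered 24 h library or the 72 h library of set 1. Log2 fold changes in this list ran from -0.578 to 0.775. Those that fell include HSP90AA1 (-0.18 ± 0.02) and DNAJA1 (-0.23 ± 0.02).

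Regulators of cell death and polyamine level also changed in part, beside the same shares of 16.25% higher and 20.14% lower among all tested protein-coding genes. Of 18 BCL2 family genes 6 rose and 3 fell; 5 fell with the set as a block and 1 with library totals. MCL1, which holds back cell death, rose by 0.19 ± 0.02, PMAIP1 (NOXA), which opposes MCL1, by 0.26 ± 0.03, and BCL2 fell by 0.41 ± 0.04. Of 10 polyamine genes tested 3 rose, 2 fell and 5 did not pass the test (median -0.005). SAT1, which breaks down polyamines, was among those that rose (0.52 ± 0.04). ODC1 and SRM, which make them, fell by 0.16 ± 0.02 and 0.24 ± 0.05.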
